A study of Mus musculus with 6 samples.

Results

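Integrins, laminins and the molecules that link them into the basement membrane were followed in the mouse lung cancer line 344SQ, with or without an shRNA against Pik3ca, the gene of the p110-alpha subunit of phosphoinositide 3-kinase (PI3K). The group was set by a list of 39 genes, and its members are the Affymetrix probe sets whose platform annotation names exactly 1 of these genes. These came to 81 of 45037 non-control probe sets, which stood for 38 of the 18193 genes tested. Itga11, the remaining listed gene, is not analysed here. Of the 38 genes, 23 had more than 1 probe set and 15 had 1.

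The study compared 3 arrays of 344SQ cells carrying a control shRNA with 3 arrays of 344SQ cells carrying a PIK3CA shRNA, a hairpin RNA against the mouse gene. Per the labels, the hairpin vectors were brought in by lipid transfection, and all cells were grown in medium with serum. The labels do not say whether a group was 1 clone, a pool or a transient culture, nor how many hairpins were used. They also do not give the source of each replicate, its own culture or a shared one. The p-values therefore speak to the spread among these arrays alone, and that spread may be technical. 344SQ was derived from a mouse lung adenocarcinoma, and both groups share that background.

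Integrins are cell surface receptors made of 1 alpha and 1 beta chain, and the pair decides which matrix protein or cell surface ligand is bound. Laminins are trimers of an alpha, a beta and a gamma chain that form the sheet of the basement membrane nearest to epithelial cells. Nidogens, perlecan (Hspg2) and agrin (Agrn) tie the laminin sheet to collagen IV and to receptors, and in lung this layer lies under alveolar and airway epithelium. Ligand-bound integrins recruit kinases and adaptors that feed into PI3K and ERK signalling.

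Values are linear intensities scaled to a common array median. A change is the mean log2(intensity + 16) of PIK3CA shRNA arrays minus that of control arrays, a scale on which dim genes change less than their intensities do. A gene is represented by its brightest probe set and is called when its limma p-value, adjusted over all genes, is under 0.05. Standard errors (SE) are those of the limma fit. Pik3ca itself fell to 51.9% of the control intensity by that probe set, with a change of -0.94 (SE 0.05, limma adjusted p = 0.000762). Of its 6 probe sets 5 fell, to between 47.7% and 61.1% of control, and 1 was not called, with means of 139.9 for control and 135.1 for PIK3CA shRNA. The deposited median intensity of the arrays ran from 134.1 to 134.7. Of 7 epithelial markers, Cdh1, Krt8, Krt18 and Krt19 were far above the median of all genes (250.6) in both groups, while Epcam read 467 and 368, Cldn7 156 and 117, and Cldn4 82.2 and 99.2, in control and PIK3CA shRNA cells, and 0 of 7 were called. The lung markers Sftpc and Nkx2-1 read 94.2 and 116 in control and 90.2 and 102 in PIK3CA shRNA cells, below that median, and Sftpb read 1223 and 1389.

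Among the 38 genes, 6 rose and 0 fell in PIK3CA shRNA cells by limma, and at an unadjusted p under 0.05 the counts were 9 and 0. The 6 were the linker genes Nid1 and Agrn, the collagen receptor genes Itga1 and Itga2, the alpha-v chain gene Itgav and the laminin beta-3 chain gene Lamb3. Over all genes, 11.5% were called, 5.88% as higher and 5.62% as lower. The called share of the members was 15.8%, all of them higher. The share of all genes at an unadjusted p under 0.05 was not counted, so unadjusted counts here and below have no background beside them. The median change of the members was 0.06 on the log2 scale, against -0.01 over all genes. The groups were free of overlap in 9 of the 38 genes (23.7%), against 33.1% of all genes. Large changes in a few members thus stood beside many members that were not called, as the plot of member probe sets among all probe sets shows. In bulk RNA, a different share of cells of a type and a different amount of RNA per cell cannot be told apart.

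**Figure D1:**
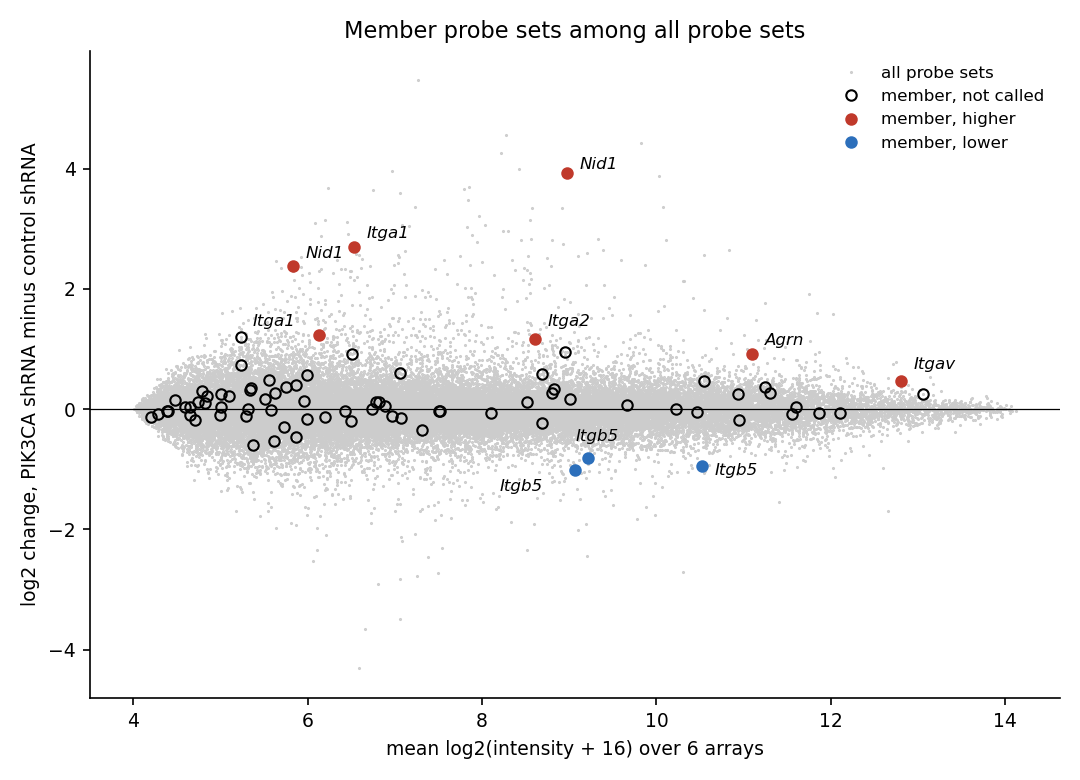
Each point is a probe set, with its mean log2(intensity + 16) over the 6 arrays on the horizontal axis and its log2 change, PIK3CA shRNA minus control shRNA, on the vertical axis. Grey points are all 45037 non-control probe sets; of the 81 member probe sets, 7 were called higher (red), 3 were called lower (blue, all of Itgb5) and 71 were not called (open circles).

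When each probe set was tested on its own over all 45037, 7 member probe sets rose and 3 fell (12.3% called), against 4.94% of all probe sets, 2.64% as higher and 2.3% as lower. The probe sets that rose were 2 of Nid1, 2 of Itga1, and 1 each of Itga2, Itgav and Agrn. The 3 that fell all belong to Itgb5, whose brightest probe set was not called. The Lamb3 probe set, called in the fit over genes, had a limma adjusted p of 0.0650 over all probe sets. Without PIK3CA shRNA replicate 1 the count of member probe sets that rose was 4. The count that fell was 1 without any 1 of control shRNA replicates 1, 2 and 3 or PIK3CA shRNA replicate 1, and 2 without PIK3CA shRNA replicate 3.

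The upstream sequences of the genes with the largest called changes are shown first, with that of Itgb5 as the gene with the opposite direction. Each is the 250 bases before the annotated start of the gene, from RefSeq (GRCm38.p6), 5′ to 3′ on the gene's strand, and 26 of the 39 listed genes had an entry. Capitals mark matches on either strand to the GC box letters GGGCGG. The window of Nid1 is chr13:13437352-13437601 on the plus strand, that of Itga1 is chr13:115101965-115102214 on the minus strand, that of Itga2 is chr13:114932101-114932350 on the minus strand, and that of Itgb5 is chr16:33829415-33829664 on the plus strand.
Nid1: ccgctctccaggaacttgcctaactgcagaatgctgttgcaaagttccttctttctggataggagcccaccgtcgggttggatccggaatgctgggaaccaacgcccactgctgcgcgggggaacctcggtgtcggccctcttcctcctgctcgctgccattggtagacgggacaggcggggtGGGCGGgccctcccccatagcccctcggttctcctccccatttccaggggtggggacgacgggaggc
Itga1: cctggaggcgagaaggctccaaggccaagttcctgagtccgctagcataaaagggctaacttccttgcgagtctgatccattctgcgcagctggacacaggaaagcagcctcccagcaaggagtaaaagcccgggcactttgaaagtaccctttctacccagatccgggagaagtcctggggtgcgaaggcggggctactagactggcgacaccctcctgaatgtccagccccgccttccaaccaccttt
Itga2: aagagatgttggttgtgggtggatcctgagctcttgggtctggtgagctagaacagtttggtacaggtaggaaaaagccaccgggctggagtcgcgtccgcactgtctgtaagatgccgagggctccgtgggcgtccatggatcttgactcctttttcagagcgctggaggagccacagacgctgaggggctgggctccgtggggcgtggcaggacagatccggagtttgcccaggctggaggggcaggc
Itgb5: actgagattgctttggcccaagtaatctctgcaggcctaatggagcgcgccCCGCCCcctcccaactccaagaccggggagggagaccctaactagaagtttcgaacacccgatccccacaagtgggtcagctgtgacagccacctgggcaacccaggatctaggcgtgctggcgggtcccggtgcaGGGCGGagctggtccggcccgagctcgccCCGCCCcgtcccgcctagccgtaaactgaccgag
Nid1 had 1 match, Itgb5 had 3 and the windows of Itga1 and Itga2 had none, where 32.7% of all 32851 promoter windows of this length held at least 1. Over all member windows 13 of 30 held it, and Agrn, also called, had 14 matches over its windows, which are not shown. The FOXO core letters TGTTTAC, searched on both strands, were in none of the 30 member windows, against 3.17% of all windows. The AP-1 letters TGANTCA were in 1 of the 30, which was not a window of a called member, against 6.75% of all. Of the 3 motifs, the GC box is the only one in the windows shown, and a match is a description of letters only.

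Nid1 encodes nidogen-1, the glycoprotein that bridges laminin and collagen IV, and it had the largest rise among the members. Its brightest probe set read 112.7, 108.7 and 117.5 on the control arrays and 1904, 1993 and 1946 on the PIK3CA shRNA arrays. Every PIK3CA shRNA array was thus far above every control array, and the spread within each group was small. The mean went from 113 ± 4.44 to 1948 ± 44.7 (SD, n = 3 each), 17.2-fold, a change of 3.93 (SE 0.06, limma adjusted p = 3.89e-05). Another Nid1 probe set read 9.05 ± 1.5 in control and 121 ± 51.1 in PIK3CA shRNA cells (SD, n = 3 each), and it too was called over all probe sets (limma adjusted p = 0.0145). The third, dim probe set read 13.6 ± 6.37 and 32.9 ± 5.29 (SD, n = 3 each) and was not called, although its groups did not overlap. The call of Nid1 held under all 18 alternatives run. The second probe set lost its call without control shRNA replicates 1, 2 or 3 (limma adjusted p = 0.0614, 0.0681 and 0.0618) and without PIK3CA shRNA replicate 1 (0.0677).

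Agrn encodes agrin, a heparan sulfate proteoglycan that binds laminin and dystroglycan and is also the organiser of the nerve-muscle synapse, and its gene lies at 156165290 to 156197533 on chromosome 4. It read 1697, 1497 and 1540 on the control arrays and 3129, 2878 and 3009 on the PIK3CA shRNA arrays, with no overlap. The mean rose 1.90-fold, from 1578 ± 105 to 3005 ± 126 (SD, n = 3 each), with a change of 0.92 (SE 0.07, limma adjusted p = 0.00242). Its other probe set was dim in both groups, below the lower quartile of all genes (61.3), and was not called. The other linkers were not called. Nid2, which encodes the second nidogen, read 25.9 ± 14.8 and 25.7 ± 13.9 (SD, n = 3 each) and was below the lower quartile in both groups. Hspg2, which encodes perlecan, read 778 ± 10.6 in control and 823 ± 116 in PIK3CA shRNA cells (SD, n = 3 each), and its groups overlapped.

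**Figure D2:**
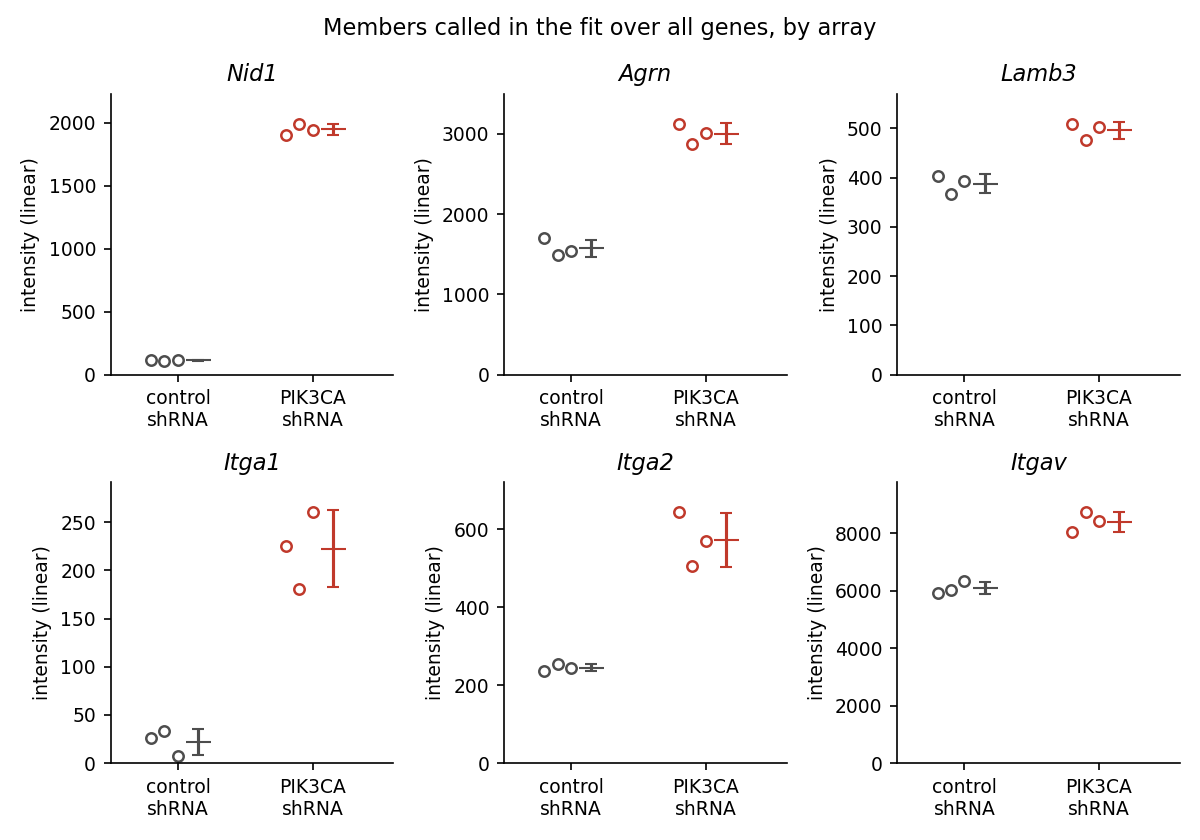
Each panel plots the linear intensity of 1 called gene on the 3 control shRNA arrays (grey circles) and the 3 PIK3CA shRNA arrays (red circles), with the mean and SD of each group beside them and axes that start at 0. The groups do not overlap in any of the 6 genes, and the fold ranges from 1.28 in Lamb3 to 17.2 in Nid1.

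Among the laminin genes, 1 of 10 rose and 0 fell by limma, and at an unadjusted p under 0.05 the counts were 2 and 0. Lamb3 encodes the beta-3 chain, which is found in the laminin of hemidesmosomes, from a gene at 193294353 to 193343878 on chromosome 1. It read 404, 367 and 393 in control and 510, 476 and 503 in PIK3CA shRNA cells, so each array of the knockdown was above each control array. The rise was 1.28-fold, with a change of 0.34 (SE 0.06, limma adjusted p = 0.0289). This call was lost without any 1 of the 6 arrays (limma adjusted p = 0.0659, 0.0883 and 0.0807 without control shRNA replicates 1, 2 and 3, and 0.0973, 0.0602 and 0.0986 for the same replicates of PIK3CA shRNA). The call did not hold with chromosome medians taken out (0.0520), with a replicate block or with the most variable probe set of each gene. Counting the stricter threshold of 0.01, it was lost in 10 of 18 alternatives.

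Lama5, which encodes the main laminin alpha chain of adult epithelial basement membranes, read 1935, 2034 and 2438 in control and 2775, 2769 and 2690 in PIK3CA shRNA cells. The groups did not overlap, but the change of 0.37 (SE 0.10) was not called (limma adjusted p = 0.0773). The adjusted p was 0.0337 without control shRNA replicate 3, the highest control array, 0.0462 with dim genes left out and 0.0186 with an intensity trend. Lama5 lies on chromosome 2, and with chromosome medians taken out its change was 0.20 and was not called. A second Lama5 probe set read 1266 ± 265 and 1738 ± 87.4 (SD, n = 3 each), again without overlap and not called. The partner chains that complete common Lama5 trimers were bright and not called: Lamb1, the beta-1 chain gene, read 3056 ± 128 and 3132 ± 139, and Lamc1, the gamma-1 chain gene, read 1183 ± 84.5 and 1196 ± 236 (SD, n = 3 each). Lama3, the alpha chain gene of the beta-3 laminin, read 92.0 ± 9.50 and 102 ± 11.8 (SD, n = 3 each), and its groups overlapped. Lamb2 and Lamc3 were not called, nor was Lama2, the alpha chain gene of muscle laminin. Lama1 and Lama4, at mean intensities of 5.43 and 8.75 in control and 4.96 and 9.47 in PIK3CA shRNA cells, were below the lower quartile of all genes in both groups.

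Of the 3 measured genes for collagen-binding alpha chains, 2 rose and 0 fell. These chains carry an inserted domain that binds collagen through a metal ion, and each pairs with the beta-1 chain. Itga1, whose product prefers collagen IV, read 25.9, 33.3 and 7.08 in control and 226, 181 and 260.5 in PIK3CA shRNA cells. All 3 control values lay below the lower quartile of all genes, and all 3 knockdown values lay above it. The change was 2.70 (SE 0.31, limma adjusted p = 0.00697). A second Itga1 probe set read 29.7 ± 2.41 and 91.7 ± 5.76 (SD, n = 3 each), 3.09-fold higher, with a change of 1.24 (limma adjusted p = 0.00205 over all probe sets). Both probe sets were higher, but both control means lay below the lower quartile, so the sizes depend on the pseudocount: with a pseudocount of 1 or 64 the changes were 3.50 and 1.74 for the brighter and 1.60 and 0.73 for the other. Over all probe sets, the brighter lost its call without PIK3CA shRNA replicate 1 (0.0565) or 3 (0.0539).

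Itga2, whose product prefers fibrillar collagens and also binds some laminins, read 236, 254 and 243 in control and 643, 506 and 568 in PIK3CA shRNA cells. The lowest knockdown array was above the highest control array. The mean rose 2.34-fold, from 244 ± 9.24 to 573 ± 68.8 (SD, n = 3 each), with a change of 1.17 (SE 0.10, limma adjusted p = 0.00279). This call held under all 18 alternatives run over genes. Itga10, the gene of a collagen receptor chain of cartilage, read 165 ± 42.2 and 126 ± 20.5 (SD, n = 3 each), with overlap and no call.

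Itga1 and Itga2 are neighbours on chromosome 13 (GRCm38.p6), Itga2 at 114833081 to 114932100 and Itga1 at 114958079 to 115101964, with no tested gene between them. Of the 5 tested genes on each side of Itga1, Itga2 was the 1 that was called. Pelo, which lies within the span of Itga1, read 228 in control and 302 in PIK3CA shRNA cells (limma adjusted p = 0.110), and Mocs2, on the other side of Itga2, read 2032 and 1806 (limma adjusted p = 0.110). Both were chosen for their position. Nid1 is on the same chromosome, at 13437602 to 13512275. Among its 10 neighbours 0 rose and 1 fell, with changes from -0.33 to 0.11. The median change of the brighter genes of chromosome 13 was -0.03.

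**Figure D3:**
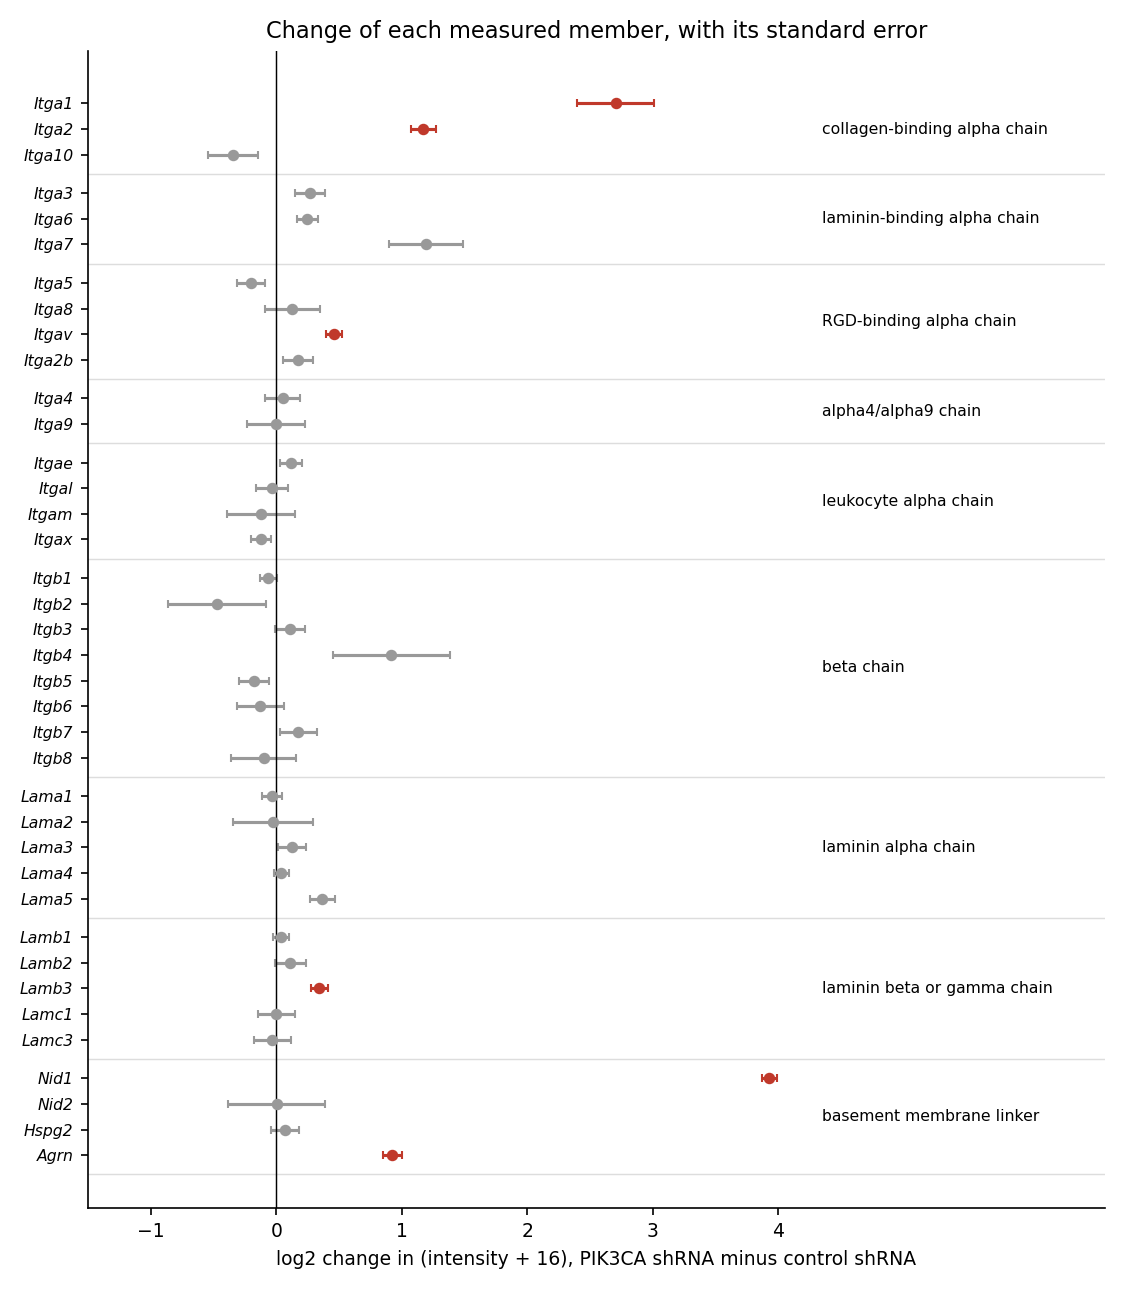
The horizontal axis gives the log2 change in (intensity + 16), PIK3CA shRNA minus control shRNA, of each of the 38 measured genes by its brightest probe set, with bars for 1 standard error of the limma fit, and genes are grouped by role on the vertical axis. The 6 called genes (red) sit at 0.34 to 3.93, and the 32 genes not called (grey) range from -0.47 to 1.19.

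The 3 genes for laminin-binding alpha chains were not called, with 2 of 3 at an unadjusted p under 0.05, both higher. Itga6, whose product pairs with beta-1 or with beta-4 in hemidesmosomes, was bright, at 8403, 8002 and 7162 in control and 8927, 9897 and 9100 in PIK3CA shRNA cells. The groups did not overlap, but the change of 0.25 (SE 0.09) was not called (limma adjusted p = 0.142), and it was called with an intensity trend (0.0329). Itga6 lies on chromosome 2, and with chromosome medians taken out its change was 0.08 and was not called. Itga3, whose product binds the alpha-3 and alpha-5 laminins, read 2293 ± 311 and 2753 ± 210 (SD, n = 3 each), with overlap (change 0.27, limma adjusted p = 0.226). Itga7, best known from muscle, was dim, at 12.9, 8.40 and 6.13 in control and 43.6, 22.0 and 66.2 in PIK3CA shRNA cells. These groups did not overlap either, and the change of 1.19 (SE 0.29) was not called (limma adjusted p = 0.0592). It was called without PIK3CA shRNA replicate 2 (0.0267), with array weights (0.0476) and with an intensity trend (0.0296).

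The alpha-v chain pairs with several beta chains to bind ligands with the RGD motif, such as vitronectin and fibronectin, and can activate latent TGF-beta. Its gene Itgav read 5937, 6014 and 6343 in control and 8032, 8733 and 8415 in PIK3CA shRNA cells. The rise was 1.38-fold, with a change of 0.46 (SE 0.06, limma adjusted p = 0.0114). The other 4 Itgav probe sets were 1.45-fold to 1.92-fold higher, and the groups did not overlap in any of the 5, against 27.3% of all probe sets, but of the 5 the brightest alone was called. Of the other 4, 2 lay below the lower quartile of all genes in both groups, so their folds describe dim signal. The call over genes was lost without control shRNA replicate 2 (0.0501) or PIK3CA shRNA replicate 3 (0.0507), with the mean of its probe sets (0.0696) and with its most variable probe set (0.0547). It was also lost with a replicate block and at an adjusted p threshold of 0.01. Over all probe sets, the call of the brightest was lost without any 1 of the 6 arrays (0.0751 to 0.104).

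Itgav lies on chromosome 2, at 83722303 to 83806917, and there the median change of the brighter genes was 0.20. When each array's median over all genes of a chromosome was taken out, which removed 0.17 on chromosome 2, its change was 0.29 and was not called (limma adjusted p = 0.0752). The part of this chromosome-wide shift in the rise was not tested further. Of its 10 neighbours 2 rose and 1 fell. Another 6 members lie on chromosome 2 (Itga8, Lamc3, Itgb6, Itga6, Itga4 and Lama5), and 5 of the 7 had a positive change, with a median of 0.13, against 0.04 for the 31 members elsewhere.

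Itgb5 encodes the beta-5 chain, which pairs with alpha-v alone and binds vitronectin. Its gene lies at 33829665 to 33949338 on chromosome 16. The probe set with the smallest adjusted p read 1978, 1953 and 2160 in control and 1025, 997 and 1101 in PIK3CA shRNA cells. It fell to 51.3% of control, with a change of -0.95 (SE 0.08, limma adjusted p = 0.00448 over all probe sets). Another fell to 49.2% of control, from 746 ± 34.6 to 367 ± 87.9 (SD, n = 3 each; limma adjusted p = 0.0408), and a further one to 56.5%, from 768 ± 22.4 to 434 ± 46.2 (SD, n = 3 each; limma adjusted p = 0.0126). In each of these 3 the groups did not overlap.

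The brightest Itgb5 probe set, which represents the gene in the fit over genes, read 1784, 2209 and 2295 in control and 1669, 1931 and 1931 in PIK3CA shRNA cells. These groups overlapped, and the change of -0.18 was not called (limma adjusted p = 0.436 over genes). All 4 probe sets were thus lower on average. Over all probe sets, the 3 called lower changed by -0.95 (SE 0.08), -1.02 (SE 0.19) and -0.81 (SE 0.10), and the brightest by -0.18 (SE 0.13). The name of the brightest has the ending x_at, which Affymetrix gives to probe sets with probes that may also match other transcripts. Of the 3 called lower, 1, the one at 56.5% of control, carries it too. With the mean of the 4 probe sets, Itgb5 fell by 0.74 on the log2 scale and was called over genes (limma adjusted p = 0.00715), as was its most variable probe set by interquartile range (0.00404). The probe set at 49.2% of control lost its call without any of the arrays but PIK3CA shRNA replicate 2 (limma adjusted p from 0.0754 to 0.126). The probe set at 56.5% lost it without any 1 of control shRNA replicates 1, 2 and 3 or PIK3CA shRNA replicate 1 (0.0562 to 0.0625).

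**Figure D4:**
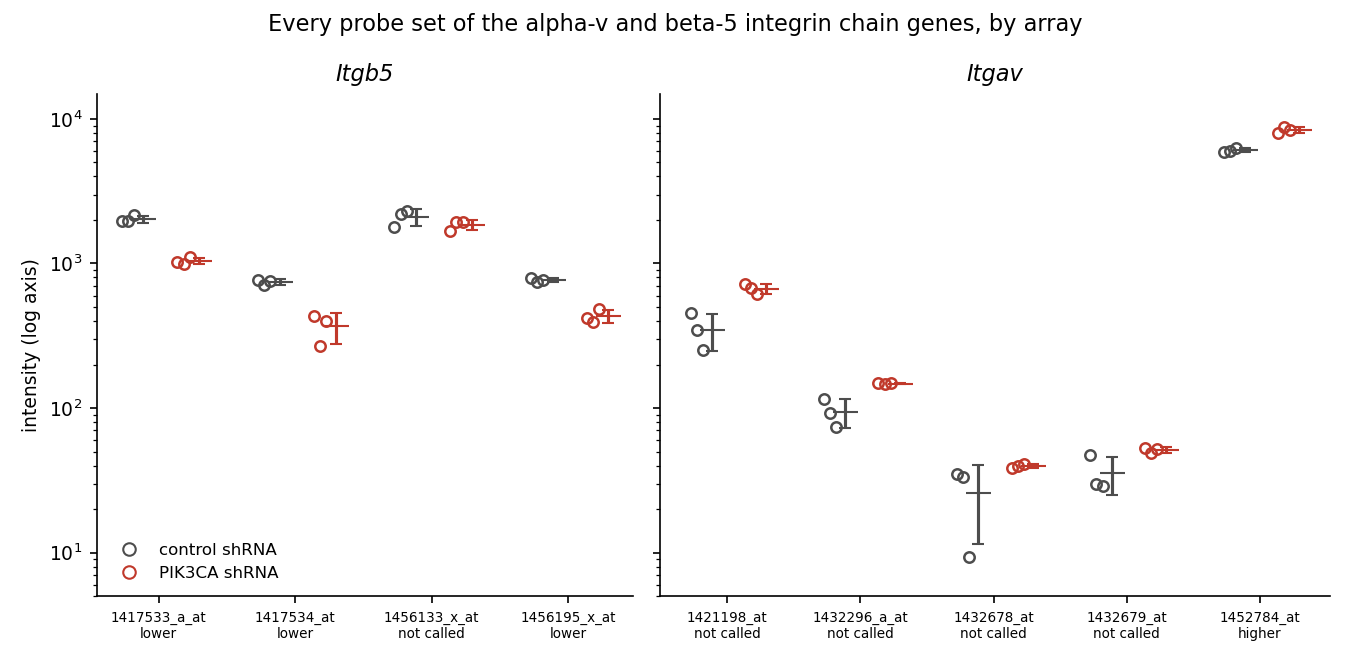
The vertical axis gives intensity on a log axis for each of the 4 Itgb5 probe sets (left) and 5 Itgav probe sets (right), with circles for arrays and a bar for the mean and SD of each group, control shRNA in grey and PIK3CA shRNA in red. In 3 Itgb5 probe sets the knockdown arrays all lie below the control arrays, and in all 5 Itgav probe sets they all lie above.

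The other beta chain genes were not called, and 0 of the 8 had an unadjusted p under 0.05 by their brightest probe set. Itgb1, the common partner of the collagen and laminin receptors, read 4674, 4435 and 4401 in control and 4565, 4252 and 4123 in PIK3CA shRNA cells. These values overlapped, and the change was -0.06 (SE 0.07, limma adjusted p = 0.624). Its other bright probe sets read 3792 ± 52.8 and 3112 ± 226 in control, and 3638 ± 13.1 and 2925 ± 192 in PIK3CA shRNA cells (SD, n = 3 each). Neither was called, but in the first the groups did not overlap, with all knockdown arrays lower. Itgb1 lies on chromosome 8, where the median change of the brighter genes was -0.25. The part of that shift in the Itgb1 values was not tested. Itgb4, the hemidesmosome chain gene, read 24.7, 79.0 and 58.8 in control and 204, 74.4 and 81.7 in PIK3CA shRNA cells, and the mean in the knockdown rested on 1 array. Its change was 0.92 (SE 0.47, limma adjusted p = 0.293). Itgb3, Itgb7, Itgb8 and Itgb2 were below the lower quartile of all genes in both groups, and Itgb6 was close to it, at 61.7 ± 13.5 in control and 55.3 ± 13.3 in PIK3CA shRNA cells (SD, n = 3 each).

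The fibronectin receptor chain gene Itga5 read 80.9 ± 8.68 and 68.3 ± 9.60 (SD, n = 3 each), with overlap, and Itga8, a receptor chain for nephronectin, was below the lower quartile in both groups. Itga2b, the platelet chain gene that pairs with beta-3, read 470 ± 26.3 and 535 ± 82.2 (SD, n = 3 each) and was not called. The platelet markers Pf4, Ppbp and Gp9, 0 of 3 called, summed to 108 to 156 over the control arrays and 170 to 181 over the PIK3CA shRNA arrays. Itga4 and Itga9, whose products bind VCAM1, fibronectin variants and tenascin, read 101 ± 3.97 and 90.7 ± 8.53 in control, and 106 ± 20.8 and 93.6 ± 31.8 in PIK3CA shRNA cells (SD, n = 3 each). Neither was called, and the groups of both overlapped.

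Of the leukocyte-type alpha chain genes Itgae, Itgal, Itgam and Itgax, 0 of 4 were called by limma and 0 had an unadjusted p under 0.05. Itgae, Itgal and Itgax had mean intensities of 90.6, 168 and 115 in control and 99.2, 164 and 105 in PIK3CA shRNA cells. Itgam, the macrophage chain gene, and Itgb2, the beta chain gene that Itgal, Itgam and Itgax products need, were below the lower quartile in both groups. The leukocyte markers (Ptprc, Cd68, Adgre1, Lyz2, Csf1r, Cd3e and Cd3g) were not called in 7 of 7, with 0 at an unadjusted p under 0.05. Their summed intensity was 722 to 926 over the control arrays and 764 to 878 over the PIK3CA shRNA arrays.

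Collagen-binding integrins and nidogen are also made by fibroblasts and endothelial cells. Of 8 fibroblast markers 0 rose and 1 fell (Dcn, -0.75), with 0 higher and 2 lower at an unadjusted p under 0.05. Their summed intensity was 682 to 733 in control and 490 to 751 in PIK3CA shRNA cells. Pdgfrb, Postn and Thy1 were below the lower quartile of all genes in both groups. In control and PIK3CA shRNA cells, Col1a2 read 211 and 197, Pdgfra 141 and 155, and Col1a1 101 and 80.2. Lum read 99.5 and 71.4, and Dcn 74.1 and 37.6. Of 5 endothelial markers 0 were called by limma, with 1 higher and 1 lower at an unadjusted p under 0.05. These summed to 495 to 580 in control and 528 to 648 in PIK3CA shRNA cells. Kdr read 351 and 398, Cdh5 67.6 and 100.5, Pecam1 67.4 and 33.7, Tek 55.4 and 55.2, and Tie1 2.42 and 2.26, and the groups did not overlap in Kdr, Cdh5 and Pecam1. The part of these marker levels in the changes above was not tested. Of 7 epithelial markers 0 were called, with 1 lower at an unadjusted p under 0.05, and of 6 lung markers 0 and 0.

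Other basement membrane genes and matrix receptors moved both ways: of 25 measured, 4 rose and 2 fell (24% called, against 11.5% of all genes), with a median change of -0.06. Col4a5 and Col4a4, which encode chains of the alpha-3, alpha-4, alpha-5 collagen IV network, fell by 1.30 and 0.95 on the log2 scale. The other collagen IV genes, named here once their values were known, were not called, with lower means in PIK3CA shRNA cells. In control and PIK3CA shRNA cells, Col4a1 read 3643 and 3288, Col4a2 2185 and 1852, Col4a3 157 and 114, and Col4a6 127 and 118. Col4a5 read 1590, 1675 and 1727 in control and 667, 664 and 670 in PIK3CA shRNA cells. Col4a4 was below the median of all genes in both groups, at a mean of 142 and 66.1, and its groups did not overlap. Col18a1, the gene of the endostatin-bearing collagen, rose by 1.03, from 597, 518 and 656 to 1210, 1173 and 1264. The syndecan genes Sdc4 and Sdc1, whose products are heparan sulfate proteoglycans that act with integrins, rose by 0.63 and 0.44, and Sparc, a collagen-binding matricellular protein gene, by 0.60. Sdc1 lost its call without control shRNA replicate 1 (0.0523) or 2 (0.0526) or PIK3CA shRNA replicate 3 (0.0564). Sdc4 is on chromosome 2, and its change with chromosome medians taken out was 0.46 and still called.

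Of 20 measured ligands outside the laminins, 1 rose and 3 fell (20%), with a median change of -0.01. Vcam1, a ligand of the alpha-4 and alpha-9 receptors, rose by 0.52, and its call was at the edge without PIK3CA shRNA replicate 1 (limma adjusted p = 0.050004, not called). The thrombospondin gene Thbs1, the matricellular gene Ccn1 and the leukocyte integrin ligand gene Icam1 fell, with changes of -0.91, -0.68 and -0.45. Of 33 measured cytoplasmic and membrane partners of integrins, 4 rose and 3 fell (21.2%), with a median change of 0.04.

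The tensins, which bind integrin tails, moved in both directions, and Tns2 was not called. Tns4 read 1793, 1938 and 2081 in control and 3573, 3473 and 3443 in PIK3CA shRNA cells, and Tns3 rose by 0.57. Tns1 read 736, 955 and 1116 in control and 317, 265 and 380 in the knockdown, a change of -1.49 (SE 0.20, limma adjusted p = 0.0101). In Tns1, Tns3 and Tns4 the groups did not overlap. The kinase gene Ptk2b (0.85) and the zyxin gene Zyx (0.44) also rose, and the vinculin gene Vcl and the talin-2 gene Tln2 (-0.31) fell; Tln2 was picked out once its value was known. When the probe sets of a gene were averaged, Tns3 (0.128), Vcl (0.108) and Ptk2b (0.149) lost their calls by limma adjusted p. The calls of Ptk2b and Zyx were lost without any 1 of the 6 arrays (0.0522 to 0.0925 and 0.0683 to 0.110), and that of Vcl without control shRNA replicate 1 or 3 or PIK3CA shRNA replicate 1 or 2 (0.0509 to 0.0572).

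Probe sets of a gene did not always move alike. Of the 23 members with more than 1, the probe sets of 13 had changes of 1 sign and those of 10 had both signs. Among the 10 were Itgb1, Lamb1 and Hspg2, none of which had a called probe set. Of Itga4's 5 probe sets 4 were below the lower quartile of all genes in both groups. So were 3 of Itgb1's 6 and 2 of Itga5's 4, and the signs of these probe sets describe dim signal.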

How the data were processed

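Affymetrix arrays measured total RNA of 6 samples, each on its own array, prepared by Affymetrix's protocol per the labels. The deposited values are linear intensities for 45101 probe sets, with nearly equal quartiles on all arrays. How the authors normalized them is not given in the sources. Detection calls were not used here, and precision is limited by 3 arrays per group.

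Here 64 control probe sets were left out, arrays were scaled to a common median, and log2(intensity + 16) was taken. Platform annotation named 34945 probe sets with 1 gene symbol, 932 with several and 9160 with none. Of these, 34741 matched RefSeq genes (GRCm38.p6). Each gene was represented by its probe set with 1 symbol and the highest mean. The comparison used R 4.3.3 and limma 3.58.1 (lmFit, eBayes, two-sided, no replicate block), over 18193 genes and, separately, over 45037 probe sets, with Benjamini-Hochberg adjustment over each whole table. The exact two-sided permutation test over 20 assignments cannot go below 0.1 and is not printed per gene. The steps were tested on simulated data.

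The members and lists were chosen with earlier results of these data known. Every member is accounted for, those past the threshold with full values, and up to 6 per related list. Other named genes are stated as such. Chromosome medians in the report cover genes above the median brightness. The alternative that takes them out uses all genes of a chromosome. Plots used Python 3.11.15 with matplotlib 3.10.9.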

Additional observations from a re-analysis of the deposited data

How the results depend on the processing

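Alternatives were a replicate block, quantile and upper-quartile normalization, a filter on dim genes, other choices of probe set per gene, an intensity trend (robust prior), array weights, a pseudocount of 1 or 64, adjusted p 0.01, chromosome medians taken out, and leaving out each array. The calls of Nid1, Agrn and Itga2 held in all 18 over genes, and Itga1 in all but the block (limma adjusted p = 0.0647). Over all probe sets, the called probe sets of Agrn and Itga2 lost their calls with the block (limma adjusted p = 0.0584 and 0.0754).

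The count of members higher over genes (6) was 3 with the replicate block and 4 to 6 without 1 array, and within 1.5 times under the others. The count lower (0) was 1 with the mean of probe sets and 1 with the most variable probe set (largest interquartile range), Itgb5 in both, and 0 without any 1 array. Member probe sets higher (7) numbered 2 with the block, 11 with the intensity trend, 4 at adjusted p 0.01 and 4 to 7 without 1 array. Those lower (3) numbered 0 with the block, 1 at adjusted p 0.01 and 1 to 3 without 1 array. Over all genes the block called 260 as higher and 153 as lower, against 1070 and 1023. An intensity trend called 1606 and 1586, adjusted p 0.01 left 379 and 257, and leaving out 1 array gave 512 to 606 and 414 to 532. Over all probe sets (1189 and 1036), the counts were 136 and 49 with the block, 2324 and 2348 with the trend, 389 and 204 at adjusted p 0.01, and 441 to 615 and 252 to 400 without 1 array. A dim filter gave 1594 lower and a pseudocount of 64 gave 1822 and 1809. The causes were not tested. The labels do not say whether replicate numbers pair arrays. Deviations of same-numbered arrays correlated at 0.05, -0.02 and -0.02, and not every array correlated best with its own number. With 3 arrays per group, these correlations cannot decide whether a pairing exists. The block costs residual degrees of freedom.

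Itgb1, not called, turned sign with the mean of probe sets (0.011), the most variable probe set (0.25) and chromosome medians over all genes taken out (0.11). Of 25 members with no single change given, 18 turned sign in at least 1 alternative and 0 were called in any. Dim members limit what these arrays can show.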
